A study of Oryza sativa with 6 samples.

Results

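Cuticular wax synthesis genes were examined in mature leaves of rice (Oryza sativa) labelled as an SRL1 knockout and in leaves of a control. The set held 9 of the 39477 loci in the deposited table. They were picked by identifier, with earlier results of these data known. The set comprised 6 genes of the GLOSSY1 family (GL1-1 to GL1-6), 2 genes given as 3-ketoacyl-CoA synthases (WSL1 and WSL4), and the transcription factor gene WR1. The srl1-KO libraries came from SRL1 knockout mutants and the non-KO libraries from the control without the knockout, with 3 libraries per genotype. All leaves were taken 60 days after germination from greenhouse plants kept at 30 °C during the day and 25 °C during the night. The labels name no cultivar, no kind of mutation and no number of independent knockout lines. They speak of leaves from a single plant and do not say how the libraries relate to plants, so p-values measure the spread between these libraries, which may be technical.

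The aerial surface of a plant is sealed by a cuticle, a cutin matrix filled with and covered by waxes, which limits water loss. Epidermal cells make the wax. A fatty acid elongase lengthens acyl chains in steps, and its first, condensing step is carried out by a 3-ketoacyl-CoA synthase. Very-long-chain products are then turned into aldehydes, alkanes and alcohols, and proteins related to maize GLOSSY1 and to Arabidopsis CER1 and CER3 act in the branch that leads to alkanes. Ethylene response factors of the WR1 kind are known as activators of wax genes.

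Expression was given as FPKM, that is, fragments divided by transcript length in kilobases and by the number mapped in that library. This corrects for gene length, so that levels of different genes can be set side by side. The summed FPKM of a library lay between 598611 and 628270. Absolute depth is unknown. SRL1 itself (Os07g0102300, chromosome 7) stood at 1.62 FPKM, 2.22 FPKM and 1.96 FPKM in the knockout libraries, against 2.50, 2.70 and 3.30 FPKM in the non-KO libraries. The name of this locus could not be checked. If it is SRL1, its transcript was present in the knockout. The log2 change of this locus, -0.39 ± 0.15 (SE), did not pass the test (limma adjusted p = 0.107). The genes chosen as leaf mesophyll markers, 4 of Rubisco's small subunit with Rubisco activase and PSBS1, were abundant in every library, with a summed level of 10296 to 11809 FPKM in srl1-KO and 11831 to 18100 FPKM in non-KO. The root marker RCC3 was listed at 0 in all 6 libraries, and 4 anther tapetum markers together reached 1.38 to 2.65 FPKM in srl1-KO and 2.59 to 2.83 FPKM in non-KO.

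WSL4 was the most abundant of the wax genes in each library, and it fell in srl1-KO. GL1-1 fell as well. GL1-2 and GL1-4, the other 2 genes expressed highly enough to be tested, did not pass the test. The remaining 5 genes (GL1-3, GL1-5, GL1-6, WR1 and the locus given as WSL1) were barely detected in either genotype. Of the 4 tested genes, 2 were called lower in srl1-KO, none was called higher by limma (also none at an unadjusted p under 0.05), and 2 were not called. A locus was tested if its mean over the 6 libraries was at least 1 FPKM, and called if the limma p, adjusted by Benjamini-Hochberg over all 19556 tested loci, was under 0.05. Among all tested loci 27.2% were called, 11.9% lower and 15.3% higher in srl1-KO. With so many loci called and 4 genes tested, the count by itself does not set the wax genes apart. The median log2 change was -0.94 over the 4 tested wax genes and 0.11 over all tested loci.

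**Figure D1:**
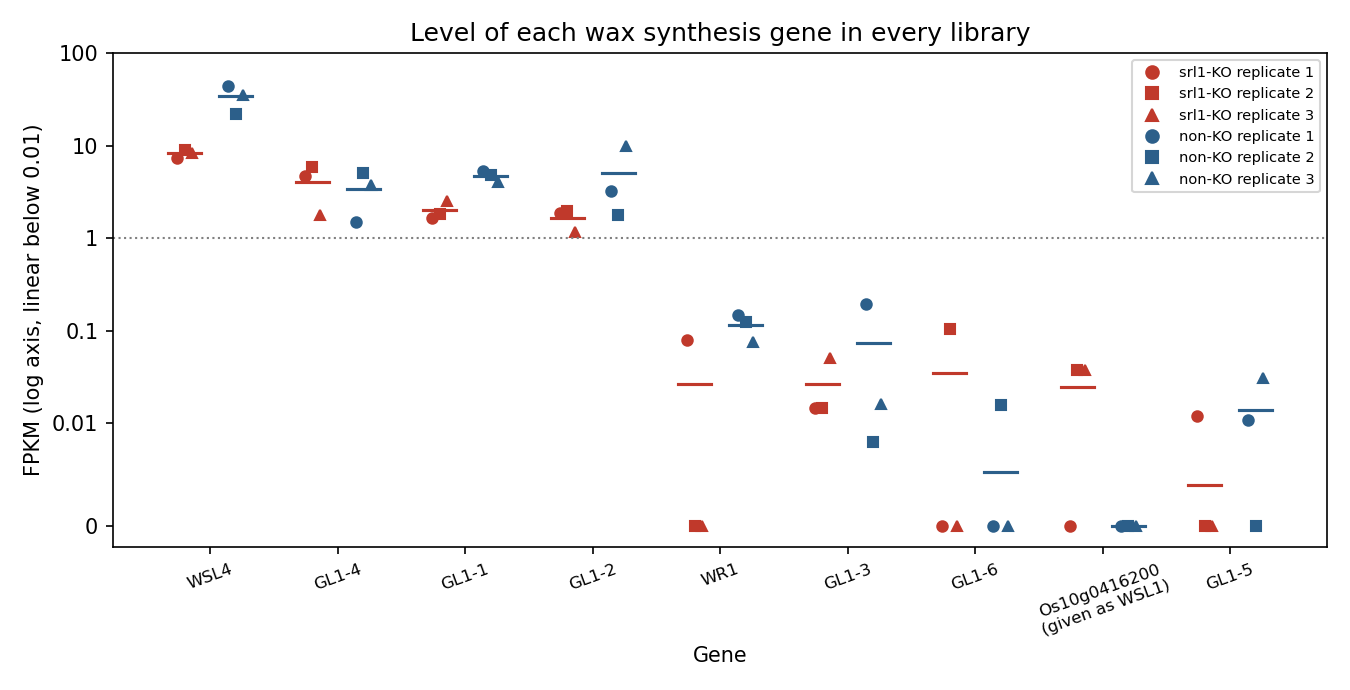
FPKM of the 9 genes in each of the 6 libraries (log axis, linear below 0.01), srl1-KO in red to the left of non-KO in blue, with horizontal bars for the means of 3 libraries and a dotted line at 1 FPKM, above which the mean had to lie for testing. WSL4 and GL1-1 show no overlap between genotypes, and 5 genes lie below 0.2 FPKM in every library.

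WSL4 (Os03g0220100, chromosome 3), a 3-ketoacyl-CoA synthase of the elongation step, had FPKM values of 7.29, 9.05 and 8.31 in the 3 srl1-KO libraries, in the order of their replicate numbers, against 44.3, 21.9 and 35.6 in the 3 non-KO libraries. Every srl1-KO library was below every non-KO library, and the non-KO libraries spread more widely. The mean was 8.22 ± 0.883 FPKM in srl1-KO and 33.9 ± 11.3 FPKM in non-KO (SD, n = 3 each), which is 4.13-fold lower. On the log2(FPKM + 1) scale used for all tests here, which understates the change of low genes, the difference was -1.87 ± 0.25 (SE), with a 95% interval from -2.47 to -1.27 (limma adjusted p = 0.00305). Of all tested loci, 3.03% had a lower log2 change than WSL4, and 2.91% were called with a fall of at least that size. In these bulk samples, fewer cells that express a gene and less RNA of it per cell cannot be told apart.

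GL1-1 (Os09g0426800, chromosome 9), a GLOSSY1 family gene, had 1.67, 1.82 and 2.51 FPKM in the srl1-KO libraries, against 5.26, 4.83 and 4.04 FPKM in the non-KO libraries. Here too the genotypes did not overlap. The mean was 2.0 ± 0.447 FPKM in srl1-KO and 4.71 ± 0.618 FPKM in non-KO (SD, n = 3 each), 2.35-fold lower, and the log2 change was -0.93 ± 0.16 (SE), with a 95% interval from -1.32 to -0.55 (limma adjusted p = 0.00796). Absence of overlap was common in these data, at 47.1% of all tested loci, with 17.8% lower and 29.4% higher in srl1-KO. An exact permutation test, two-sided, gave p = 0.1 for both WSL4 and GL1-1, the smallest that 3 libraries against 3 allow. Relative to the median of all tested loci, the log2 change was -1.98 for WSL4 and -1.05 for GL1-1. Scaling the libraries by the median of ratios moved that median from 0.11 to -0.0014 and turned the split of all calls from 2326 lower and 2995 higher to 2861 lower and 1948 higher, while WSL4 and GL1-1 were called lower in both (log2 changes of -1.99 and -1.03 after scaling).

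**Figure D2:**
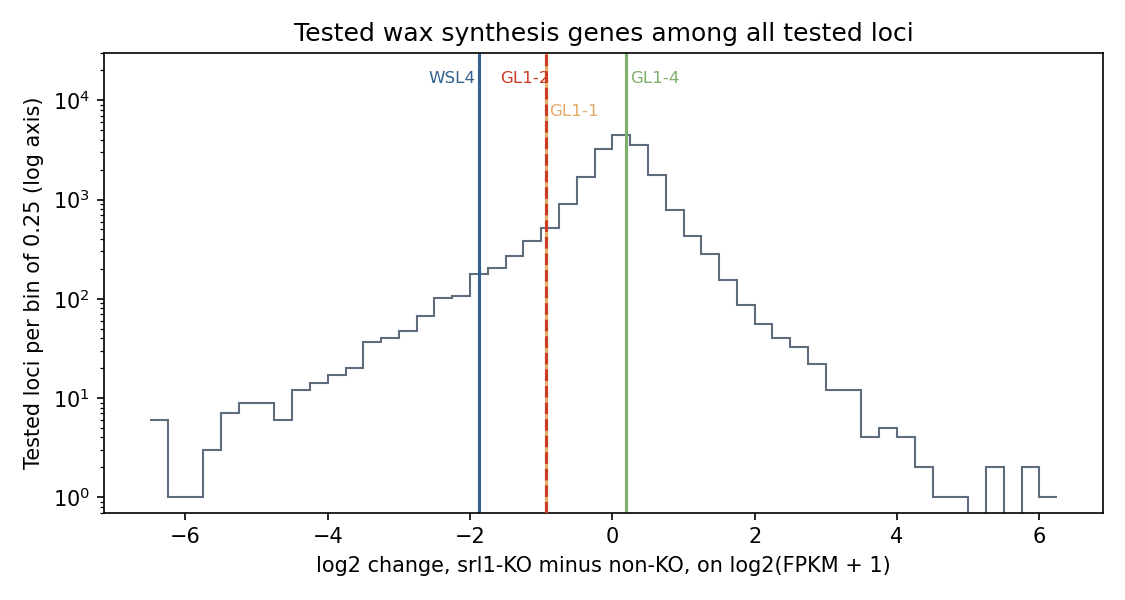
Distribution of the log2 change (srl1-KO minus non-KO, on log2(FPKM + 1)) over the 19556 tested loci, as loci per bin of 0.25 on a log axis, with vertical lines for the 4 tested wax genes. WSL4 lies at -1.87 in the lower tail, GL1-1 and GL1-2 nearly coincide at -0.93 and -0.94, and GL1-4 lies near the peak at 0.19.

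GL1-2 (Os02g0178800, chromosome 2), another GLOSSY1 family gene, had 1.86, 1.96 and 1.17 FPKM in srl1-KO, against 3.25, 1.77 and 10.01 FPKM in non-KO. A single library, non-KO replicate 3, stood far above the rest, and the lowest non-KO library was within the srl1-KO range. The log2 change of -0.94 ± 0.48 (SE) was as large as that of GL1-1 but did not pass the test (limma adjusted p = 0.190), and its 95% interval from -2.10 to 0.22 allows a large fall or a slight rise. Without non-KO replicate 3 the log2 change was -0.38, and without non-KO replicate 2 it was -1.37. The cellulose synthases of the secondary wall (CESA4, CESA7 and CESA9), markers of fibre and xylem cells, were also highest in non-KO replicate 3. As a sum, these genes reached 2.82, 3.25 and 8.07 FPKM for srl1-KO replicates 1 to 3, against 3.49, 2.05 and 18.4 FPKM in non-KO replicates 1 to 3. The second highest sum was in srl1-KO replicate 3, and GL1-2 was lowest in that library. Of these markers, only CESA4 had a name that passed the check described below. The part of fibre and xylem cells in the GL1-2 level was not tested.

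GL1-4 (Os02g0621300, chromosome 2), also of the GLOSSY1 family, had 4.67, 5.82 and 1.78 FPKM in srl1-KO, against 1.5, 5.02 and 3.77 FPKM in non-KO. Both genotypes held high and low libraries, and their ranges overlapped almost wholly. The mean was 4.09 ± 2.08 FPKM in srl1-KO and 3.43 ± 1.78 FPKM in non-KO (SD, n = 3 each). The log2 change was 0.19 ± 0.44 (SE), with a 95% interval from -0.86 to 1.24 (limma adjusted p = 0.772), so that its direction was not determined.

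**Figure D3:**
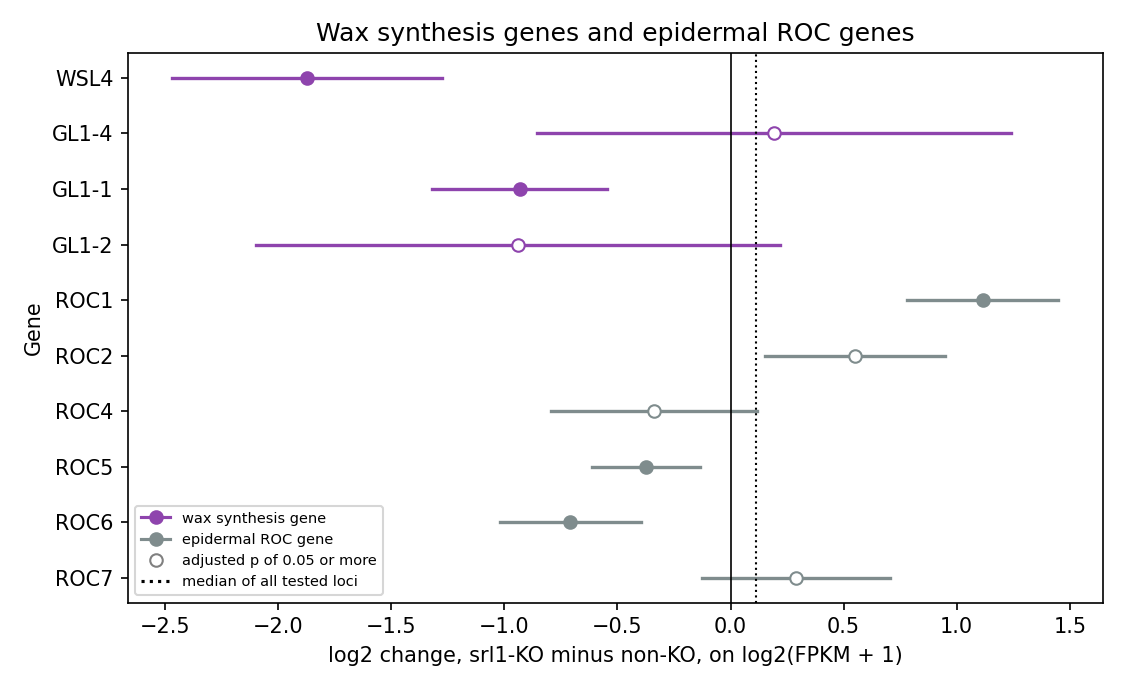
The log2 change (srl1-KO minus non-KO, on log2(FPKM + 1)) with its 95% interval for the 4 tested wax genes (purple) and the 6 tested epidermal ROC genes (grey); filled points have a limma adjusted p under 0.05, and the dotted line marks the median of all tested loci at 0.11. WSL4 and GL1-1 lie wholly below 0, and the ROC genes lie on both sides of it.

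The other 5 genes had a mean under 0.1 FPKM over the 6 libraries and were not tested by limma. WR1 (Os02g0202000, chromosome 2), the ethylene response factor, had 0.0796 FPKM in srl1-KO replicate 1 and was listed at 0 in the other 2 srl1-KO libraries, against 0.148, 0.123 and 0.0761 FPKM in the non-KO libraries. The genotypes overlapped (two-sided exact permutation p = 0.2). GL1-3 (Os06g0653000, chromosome 6) had 0.0145, 0.0145 and 0.0507 FPKM in srl1-KO, against 0.196, 0.00814 and 0.0161 FPKM in non-KO, so that its highest and its lowest value were both in non-KO. GL1-5 (Os10g0471100, chromosome 10), which is known for wax of the anther surface, reached at most 0.012 FPKM in srl1-KO and 0.0311 FPKM in non-KO, and was listed at 0 in 2 srl1-KO libraries and 1 non-KO library. GL1-6 (Os02g0814200, chromosome 2) had 0.104 FPKM in srl1-KO replicate 2 and 0.0159 FPKM in non-KO replicate 2, and was listed at 0 in the other 4 libraries. At such levels no direction can be read.

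Os10g0416200 (chromosome 10), the locus given as WSL1, had 0.0372 FPKM in srl1-KO replicate 2 and 0.0375 FPKM in srl1-KO replicate 3, and was listed at 0 in srl1-KO replicate 1 and in all 3 non-KO libraries (two-sided exact permutation p = 0.4). Its name is uncertain. A second identifier held for WSL1, Os06g0598800 on chromosome 6, could not be checked either. That locus had 3.21, 1.27 and 1.76 FPKM in srl1-KO, against 1.82, 2.89 and 1.59 FPKM in non-KO, with overlapping genotypes and a log2 difference of -0.04 with an SE of 0.28 (limma adjusted p = 0.935). Os06g0598800 was thus not called, and Os10g0416200 was too low to be tested, so the choice between them does not alter the count of called genes.

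The order of the levels differed between genotypes below the first place. In srl1-KO, WSL4 averaged 8.22 FPKM and was followed by GL1-4 at 4.09, GL1-1 at 2.0 and GL1-2 at 1.66 ± 0.426 FPKM. In non-KO, WSL4 at 33.9 FPKM was followed by GL1-2 at 5.01 ± 4.4, GL1-1 at 4.71 and GL1-4 at 3.43 FPKM. The 3 GLOSSY1 genes overlapped with each other in their ranges over libraries in each genotype, so their order was not resolved. Summed over all 9 genes, the level was 15.6, 18.8 and 13.9 FPKM in srl1-KO, against 54.7, 33.7 and 53.5 FPKM in non-KO. WSL4 made up 46.8%, 48.1% and 59.9% of this sum in the srl1-KO libraries, against 81.0%, 65.0% and 66.5% in the non-KO libraries. The shares did not overlap (exact permutation test, two-sided, p = 0.1, the smallest the design allows). Both the sum and the shares contain the WSL4 values already tested and are no separate result.

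**Figure D4:**
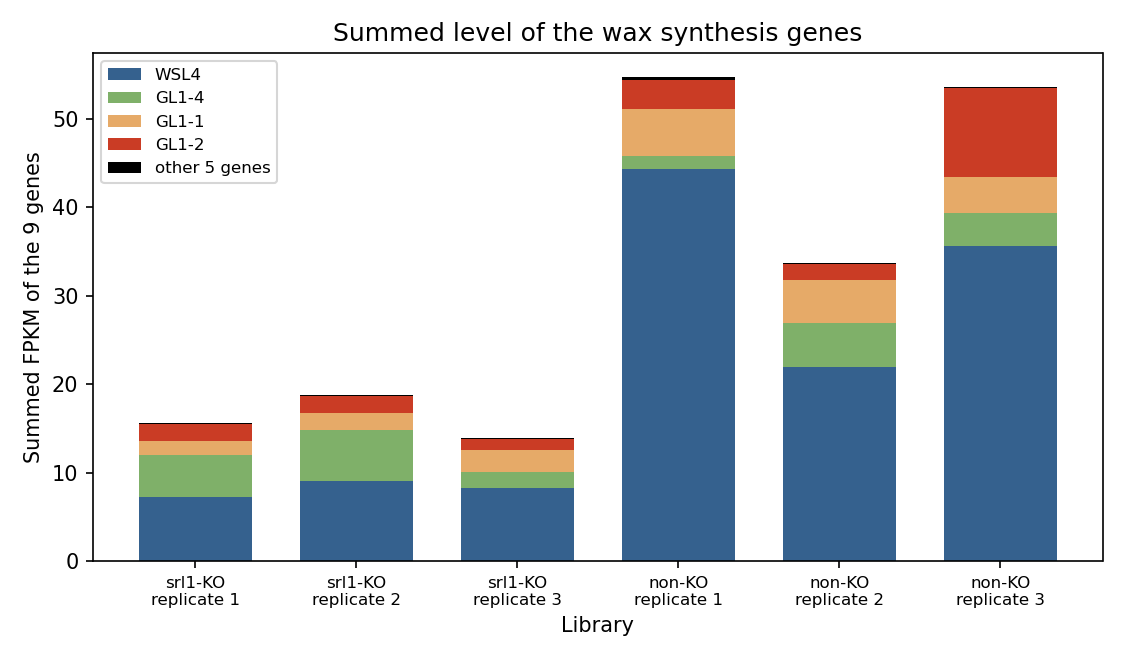
Summed FPKM of the 9 genes in each library, stacked by gene, with the 5 barely detected genes together in black. The sums lie between 13.9 and 18.8 FPKM in srl1-KO and between 33.7 and 54.7 FPKM in non-KO, and WSL4 is the largest block in each library.

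The 3 tested GLOSSY1 genes together had 8.20, 9.60 and 5.46 FPKM in srl1-KO, against 10.01, 11.6 and 17.8 FPKM in non-KO. The highest srl1-KO library lay just under the lowest non-KO library. This sum includes GL1-1, itself called lower, and the high GL1-2 value of non-KO replicate 3, so it is no separate result for the family. The mean sum was 7.75 ± 2.11 FPKM in srl1-KO and 13.2 ± 4.13 FPKM in non-KO (SD, n = 3 each), a ratio of 0.59 (exact permutation test, two-sided, p = 0.1, again the smallest the design allows). GL1-4 took 50.04 ± 15.3% of this sum in srl1-KO and 26.5 ± 14.8% in non-KO (SD, n = 3 each), with overlap between genotypes (two-sided exact permutation p = 0.2).

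The tested genes varied in different ways within a genotype. After each gene was centred on its genotype mean, Pearson's r over the 6 libraries was -0.76 between GL1-1 and GL1-4, -0.65 between GL1-1 and GL1-2, -0.58 between GL1-4 and WSL4, 0.46 between GL1-2 and WSL4, 0.14 between GL1-2 and GL1-4 and 0.13 between GL1-1 and WSL4. These values share the same libraries and only describe them. The loci whose centred values followed WSL4 most closely were Os04g0587400 and Os06g0614400 (r above 0.999 over 6 libraries for both), but 158 of 19555 loci reached an r of 0.95. Os04g0587400 differed between genotypes in the direction opposite to WSL4, with a mean of 15.0 FPKM in srl1-KO and 4.39 FPKM in non-KO (log2 change 1.59, limma adjusted p = 0.00148). Os06g0614400 averaged 105 FPKM in srl1-KO and 78.5 FPKM in non-KO (limma adjusted p = 0.133).

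Wax is made in the epidermis, and genes of the class IV homeodomain-leucine zipper (ROC) family served as epidermal markers. Their summed level over 8 genes was 92.6 to 112 FPKM in srl1-KO and 85.5 to 96.8 FPKM in non-KO, with overlap. This sum includes ROC1, which was itself called higher in srl1-KO. Of the 6 tested ROC genes, ROC1 rose, ROC5 and ROC6 fell, and 3 were not called. ROC1 averaged 25.3 ± 1.90 FPKM in srl1-KO and 11.2 ± 1.94 FPKM in non-KO (SD, n = 3 each; log2 change 1.11 ± 0.14 SE, limma adjusted p = 0.00243). ROC6 averaged 12.8 ± 0.962 FPKM in srl1-KO and 21.6 ± 2.97 FPKM in non-KO (log2 change -0.71 ± 0.13 SE, limma adjusted p = 0.00985). The names of ROC6 and ROC7 did not pass the check described below. ROC2 averaged 32.3 ± 5.23 FPKM in srl1-KO and 21.7 ± 3.33 FPKM in non-KO, without overlap. Its log2 change of 0.55 ± 0.17 (SE) was not called (limma adjusted p = 0.0513). ROC3 and ROC8 were under the expression limit. ROC8 had 0.120, 0.185 and 0.176 FPKM in srl1-KO, against 1.08, 0.482 and 0.372 FPKM in non-KO, without overlap. ROC3 averaged 0.117 FPKM in srl1-KO and 0.279 FPKM in non-KO, with overlap. Of the 8 ROC genes, 3 were lower and 2 higher in srl1-KO without overlap. The shares among all tested loci were 17.8% lower and 29.4% higher. Of the 6 mesophyll markers, RBCS3 and PSBS1 fell and the other 4 were not called. The log2 changes of these 4 were -0.47 for RBCS2, -0.13 for RCA, 0.02 for RBCS4 and 0.01 for RBCS5. Over all tested loci, 27.2% were called, 11.9% lower and 15.3% higher in srl1-KO. With so few markers, the counts of called ROC and mesophyll genes do not set them apart. The summed mean of the 6 mesophyll markers was 10846 FPKM in srl1-KO and 14701 FPKM in non-KO, a ratio of 0.738 against 0.242 for WSL4. The part of a changed makeup of the leaf in the WSL4 and GL1-1 results was not tested.

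Other cuticle genes of rice with a checked name gave little to compare. Of 19 identifiers written down for wax regulation, cutin and export, 4 had a name that the reference table placed on the same chromosome and near the same rank. Only ROC4, an epidermal factor known to act on wax synthesis, could be tested among them. It averaged 0.835 ± 0.253 FPKM in srl1-KO and 1.32 ± 0.315 FPKM in non-KO (SD, n = 3 each; log2 change -0.34 ± 0.19 SE, limma adjusted p = 0.224). The other 3 were under the expression limit, so limma called none of the 4, also at an unadjusted p under 0.05. CFL1, a WW domain protein known to affect cuticle formation, lay under the limit and had 0.149, 0.338 and 0.636 FPKM in srl1-KO, against 0.961, 1.01 and 1.56 FPKM in non-KO. Its genotypes did not overlap (exact permutation test, two-sided, p = 0.1, the smallest the design allows). The transporter gene RCN1 and the anther cutin gene CYP703A3 had group means of 0.115 to 0.930 FPKM with overlap. Of the 15 identifiers whose names could not be placed, 4 were tested and limma called none, also at an unadjusted p under 0.05. Os04g0528300, written down as an ABC transporter, averaged 19.8 FPKM over the 6 libraries (log2 change -0.27, limma adjusted p = 0.211). Os04g0483500, written down as a 3-ketoacyl-CoA reductase, averaged 9.12 FPKM (0.22, limma adjusted p = 0.255). Os03g0181500, written down as a 3-ketoacyl-CoA synthase, averaged 6.85 FPKM (0.33, limma adjusted p = 0.228). The other was Os06g0598800, described above. Among the 11 under the limit, 1 locus did not overlap between genotypes, in the direction opposite to CFL1. It was Os03g0167600, with 0.645, 0.638 and 0.601 FPKM in srl1-KO, against 0.167, 0.331 and 0.230 FPKM in non-KO (exact permutation test, two-sided, p = 0.1, the smallest the design allows). Absence of overlap was common among all tested loci, with 17.8% lower and 29.4% higher in srl1-KO. By itself it does not set CFL1 or Os03g0167600 apart. Its share among loci under the limit was not counted.

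**Figure D5:**
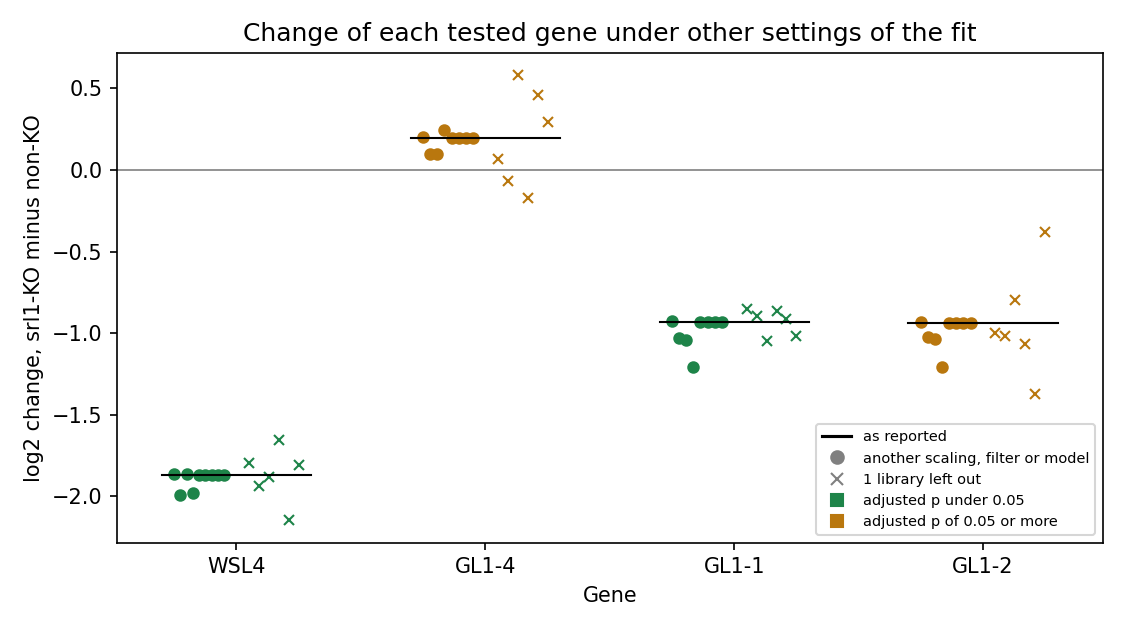
The log2 change (srl1-KO minus non-KO) of the 4 tested wax genes as reported (black bars), under another scaling, filter or model (circles) and with 1 library left out (crosses); green marks a limma adjusted p under 0.05. WSL4 and GL1-1 are green wherever they were tested, GL1-2 is not called in any setting, and GL1-4 lies on both sides of 0.

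The calls of WSL4 and GL1-1 held when any 1 of the 6 libraries was left out. The log2 change of WSL4 then ran from -2.15 to -1.65 (limma adjusted p from 0.00125 to 0.0144), and that of GL1-1 from -1.05 to -0.85 (limma adjusted p from 0.00909 to 0.0365). GL1-2 was not called in any of these fits (limma adjusted p from 0.0738 to 0.344), and the sign of GL1-4 turned in 2 of them.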

How the data were processed

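RNA-seq of 6 mature leaf libraries was analysed, 3 per genotype as named in the sample titles. The authors deposited FPKM values in 1 column per library, so replicates were kept apart. HISAT2, DESeq2 and the build IRGSP-1.0 appear in the submitters' processing notes, with no role. How FPKM values were computed, which annotation served and whether strand was used is not given in the sources used here, so reads of overlapping or closely related genes may be shared in an unknown way. Ratios at barely detected loci put the other 5 libraries between 0.889 and 0.946 of the depth of srl1-KO replicate 1. Absolute depth is unknown, so counting intervals are left out.

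The genotype difference was fitted by limma 3.58.1 (R 4.3.3) on log2(FPKM + 1), with eBayes and a mean-variance trend, two-sided, over the 19556 loci whose mean reached 1 FPKM. P-values were adjusted by Benjamini-Hochberg over all of them at a threshold of 0.05. The fit was tested on simulated data for the size of its estimates, with independent noise and changes planted away from the lowest loci. This does not check its calls of low genes. Single values were compared by an exact permutation test.

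The members and lists were chosen with earlier results of these data known. Named genes were all 9 members, every called gene of the cuticle list, and the 2 loci most like the most abundant member; the genes named beyond these were chosen after their values were seen. The file holds identifiers only. The reference table (assembly ASM3414082v1) contained none of the 9 member names, so these are used as given with the set and unchecked, and roles follow the names. SRL1 was not found in it either, so the identifier used for SRL1 is also unchecked. A list name passed if the table placed it on the identifier's chromosome within 0.03 of its rank share. No sequence of the members was used here. Markers were used whether or not their name passed: 6 of 8 epidermal, 1 of 6 mesophyll, 1 of 3 secondary-wall, 3 of 4 tapetum and 0 of 1 root markers did. Alternatives were 3 other scalings, a pseudocount of 0.1, 3 other filters, no trend, a replicate block, and each library left out.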

Additional observations from a re-analysis of the deposited data

How the results depend on the processing

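The number of called wax genes was 2 in 14 of the 15 alternatives. It was 1 with a filter at a mean of 5 FPKM, where WSL4 was the only member tested. The cuticle list went from 0 calls to 1 with a filter at a mean of 0.1 FPKM, which let in CFL1 (log2 change -0.67, limma adjusted p = 0.0416; with no filter 0.056). Over all loci, 5321 were called, and 2943 to 4649 when 1 library was left out, the lowest without srl1-KO replicate 2. The log2 change of GL1-4 ran from -0.17 to 0.58 with 1 library left out. It was negative without non-KO replicate 1 and without srl1-KO replicate 2 (-0.07). Outside the fits that left out a library, WSL4 ranged from -1.99 to -1.86 and GL1-1 from -1.21 to -0.93. The ratio of the summed GLOSSY1 levels was 0.519 to 0.717 with 1 library left out and 0.54 with median-of-ratios scaling. The labels do not say that replicate numbers pair libraries, and deviations of same-numbered libraries correlated at -0.05, 0.05 and 0.02. With a replicate block 3649 loci were called, among them WSL4 and GL1-1 (limma adjusted p = 0.0166 and 0.0387), and the block changed no call of a wax gene. The causes of these shifts were not tested, apart from the filters, which change the loci tested. Loci under 0.1 FPKM cannot be resolved at this unknown depth.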
